A study of Homo sapiens with 10 samples.

Results

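The genes described here carry glucose into the cell, break it down to pyruvate and pass pyruvate either to lactate or into the mitochondrion. They are 38 genes, taken by symbol from the 22626 rows of a table of read counts of cultured retinal pigment epithelial cells, and all 38 have a row. ARPE-19, an established human line of the retinal pigment epithelium (RPE), was kept for 48 h in control medium with 5.5 mM glucose and 32 mM mannitol (control group, n = 5) or in medium with 37.5 mM glucose (high glucose group, n = 5), both in DMEM with serum and antibiotics. Mannitol, a sugar alcohol that cells hardly take up, balances the osmotic load of the extra glucose. The question asked of these genes was which steps of the pathway differed in RNA level between the groups after this time, and in which isoforms. RNA of each library was sequenced, and the total count of a control library ranged from 33039260 to 45864176 with a median of 41468270. For the libraries with high glucose the range was 32448991 to 44400714 with a median of 39867119. Control libraries are numbered 1 to 5 as in their titles, whereas the high glucose libraries are named HG_1 to HG_5 after the table's columns, because the columns could be tied to the group alone. The study says in general terms that its data come from 3 or more independent experiments, but neither it nor the labels say that the 5 libraries of a group came from separate cultures, so the p-values measure only the spread between these libraries, which may be technical.

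Glucose enters cells by facilitated diffusion through transporters of the SLC2A family and is held inside by phosphorylation. Glycolysis then splits the hexose and oxidises it to pyruvate, with its flux set mainly at hexokinase, at phosphofructokinase and at pyruvate kinase. Pyruvate is either reduced to lactate and exported, or carried into the mitochondrion and turned into acetyl-CoA by the pyruvate dehydrogenase complex, which dedicated kinases switch off. In the eye the RPE takes up glucose from the choroid and passes much of it on to the photoreceptors, and many genes of the pathway are known targets of the hypoxia-inducible factor HIF-1.

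Before the members, the libraries and their labels were checked. TXNIP, which glucose induces, was at 1.21, 1.23, 0.818, 0.817 and 0.809 CPM (read counts scaled to a common library size by TMM) in control 1 to 5. In HG_1 to HG_5 it was at 7.59, 9.07, 12.9, 8.63 and 5.38 CPM. Every high glucose library lay above every control library in this gene, and its log2 fold change was 3.15 (standard error 0.249, edgeR adjusted p = 5.55e-05). Its relative ARRDC4 had 3.28 ± 0.438 CPM in control libraries and 5.49 ± 0.716 CPM with high glucose (SD, n = 5 each), with a log2 fold change of 0.74 (edgeR adjusted p = 0.00414). The 20 pairs of libraries within a group differed by a chi-square per gene of at least 13 and at most 78, above counting noise alone, which does not tell separate cultures from separate library preparations. Each library was treated as 1 replicate. Control 2 and HG_1 stood apart from the other libraries: their log2 counts rose by 0.170 and 0.188 for each 10 percentage points of GC content of the transcript, against slopes between -0.0916 and -0.00519 in the others. Among the 37 members tested, control 2 was the highest control library in 25 and HG_1 the highest high glucose library in 19. The members in which control 2 led had a median GC content of 55.0%, and those in which HG_1 led one of 56.8%. Results that rest on these libraries are therefore given with and without them.

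High glucose libraries had more RNA of many members, and less of the main glucose transporter. Of 37 members tested, 17 were higher in the high glucose group at an adjusted p under 0.05 (45.9%) and 1 was lower, SLC2A1, while 19 did not pass. The adjusted p is that of the quasi-likelihood fit in edgeR, corrected by the Benjamini-Hochberg method over all 14936 rows tested, of which 7.62% were called higher and 7.80% lower. Members were chosen with earlier results of these data known, so their shares describe the list and do not test it. The median log2 fold change of the members was 0.27, that of all rows was 0.00132, and 31 of the 37 members had a value above 0. In 12 members every high glucose library lay above every control library and in 1 every one lay below, against 6.74% and 6.91% of all rows tested. All 13 were among the called members, so that 5 members were called although their groups overlapped. Members took up between 1.97% and 2.33% of the counts of a control library and between 2.19% and 2.63% of those of a high glucose library. Without HG_1 and control 2, 23 members were higher and 1 was lower, and of all 14899 rows then tested 4035 passed (27.1%) in place of 2303 of 14936 (15.4%). In the fits without 1 library the number of higher members ran from 13, without control 1, to 19, without control 2. After a correction that takes out the dependence of log2 counts on GC content and transcript length in each library, 22 members were higher and 1 lower, and 3958 of 13538 rows passed. By step, uptake held the lower member among its 2 genes, and the called higher members were 2 of 4 for hexose phosphorylation, 4 of 7 for upper glycolysis and 2 of the 3 tested enzymes of fructose bisphosphate control. Lower glycolysis had 2 of 8, lactate 1 of 4, pyruvate entry 4 of 5, and the pyruvate dehydrogenase kinases 2 of 4. In RNA from whole cultures, fewer cells of a kind and less RNA per cell cannot be told apart.

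**Figure D1:**
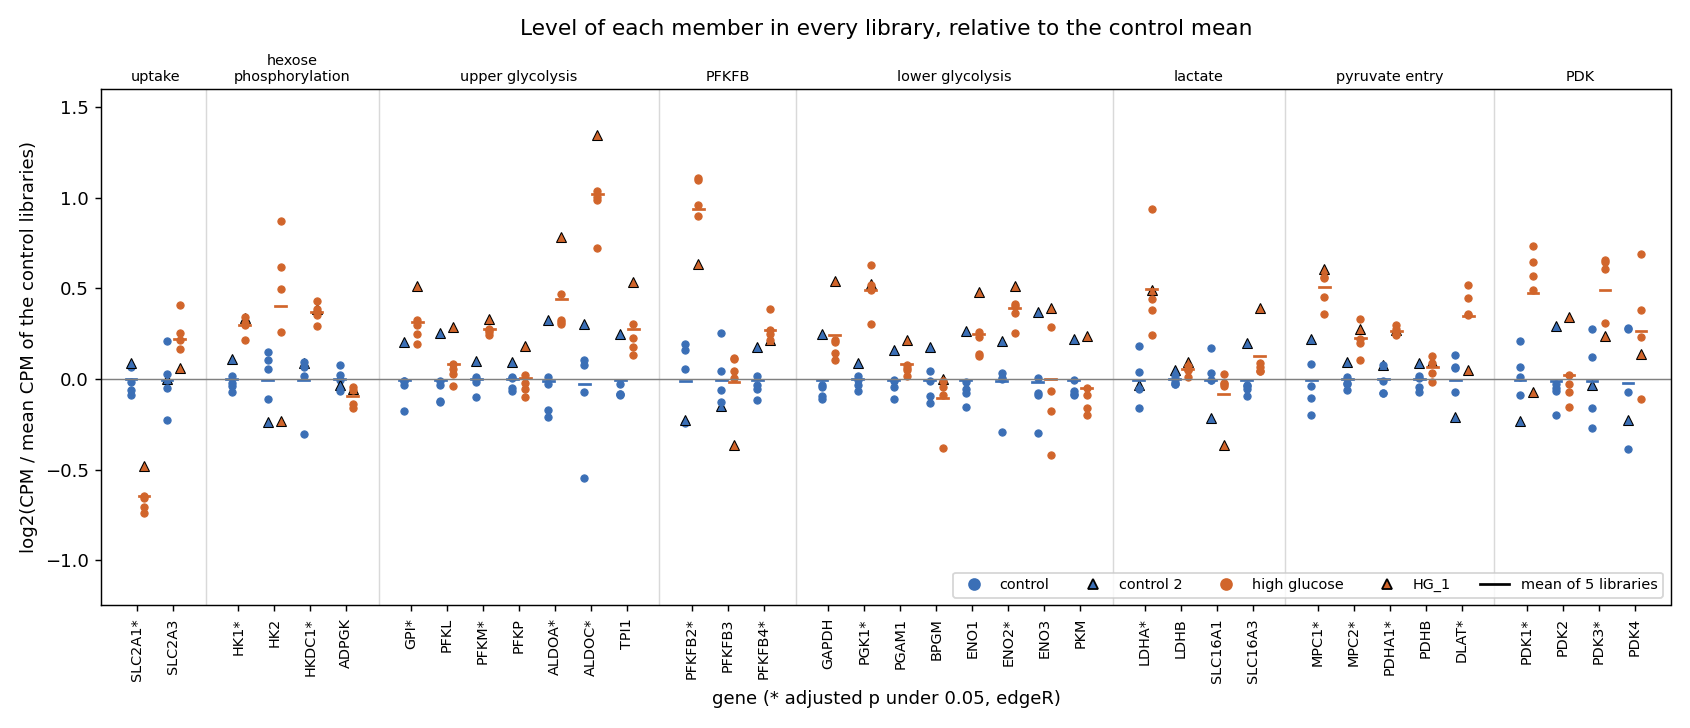
Level of each tested member in every library, as log2 of CPM over the mean CPM of the control libraries, by pathway step; points are libraries (blue control, orange high glucose, triangles control 2 and HG_1), bars are means of 5 libraries, and an asterisk marks an edgeR adjusted p under 0.05. SLC2A1 lies below the control libraries in all 5 high glucose libraries, ALDOC and PFKFB2 lie furthest above them, and both triangles are the highest of their groups in GAPDH, ALDOA and PKM.

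Since many members moved together and many are known HIF-1 targets, the sequence around their transcription starts was searched for the core of the HIF-1 binding site, ACGTG or GCGTG, on both strands. The E-box CACGTG, the palindrome bound by basic helix-loop-helix factors, was searched too; each E-box holds ACGTG on both strands, overlapping by 4 bases, and so counts as 2 matches of ACGTG. RefSeq windows (GRCh38.p14) from 250 bases before to 50 bases after a start were found for 35 of the 38 members, 67 windows in all, with SLC2A3, PFKFB2 and SLC16A1 not matched. More than 1 window was found for 14 members, up to 7 each for HK1 and PFKM, and some windows of a gene overlap almost fully. Each was counted separately, so the windows in the percentages below are not independent. ACGTG or GCGTG occurred in 43 of the 67 windows (64.2%), against 48.4% of all 35116 windows of the same length. Taken alone, ACGTG was in 34.3% of the members' windows and 21.4% of all windows, GCGTG in 44.8% and 36.5%, and CACGTG in 11.9% and 7.26%. Members' windows were richer in G and C, with a median of 68.0% against 58.7%. Windows of the called higher members held ACGTG or GCGTG in 22 of 34 (64.7%) and those of the members that did not pass in 20 of 30 (66.7%). In the same order, ACGTG alone was in 38.2% and 33.3%, GCGTG in 41.2% and 50%, and CACGTG in 8.82% and 16.7%. Printed here are the windows of the 5 members with the largest log2 fold changes by size among those that were called without overlap and have a window. They run 5′ to 3′ on the gene's strand, with ACGTG and GCGTG on either strand in capitals. They are SLC2A1 at chr1:42958819-42959118 on the minus strand, ALDOC at chr17:28576846-28577145 on the minus strand, PGK1 at chrX:78103998-78104297 on the plus strand, LDHA at chr11:18394313-18394612 on the plus strand (the more upstream of its 2 starts) and MPC1 at chr6:166382891-166383190 on the minus strand.
SLC2A1: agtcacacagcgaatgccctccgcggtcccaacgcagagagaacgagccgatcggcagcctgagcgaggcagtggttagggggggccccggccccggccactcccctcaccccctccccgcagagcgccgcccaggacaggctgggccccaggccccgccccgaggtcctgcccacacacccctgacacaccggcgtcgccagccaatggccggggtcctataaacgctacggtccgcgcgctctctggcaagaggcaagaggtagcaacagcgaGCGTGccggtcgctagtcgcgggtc
ALDOC: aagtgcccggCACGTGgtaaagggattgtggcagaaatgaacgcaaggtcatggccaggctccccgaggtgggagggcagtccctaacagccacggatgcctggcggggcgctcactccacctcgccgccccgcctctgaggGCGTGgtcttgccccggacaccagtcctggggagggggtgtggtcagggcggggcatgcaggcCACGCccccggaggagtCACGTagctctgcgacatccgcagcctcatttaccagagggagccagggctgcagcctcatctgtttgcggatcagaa
PGK1: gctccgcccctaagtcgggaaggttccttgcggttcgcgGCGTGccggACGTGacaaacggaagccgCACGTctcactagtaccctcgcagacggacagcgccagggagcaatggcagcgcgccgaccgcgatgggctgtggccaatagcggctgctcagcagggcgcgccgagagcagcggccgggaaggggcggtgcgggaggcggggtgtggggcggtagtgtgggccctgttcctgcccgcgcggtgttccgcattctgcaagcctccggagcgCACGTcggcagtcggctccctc
LDHA: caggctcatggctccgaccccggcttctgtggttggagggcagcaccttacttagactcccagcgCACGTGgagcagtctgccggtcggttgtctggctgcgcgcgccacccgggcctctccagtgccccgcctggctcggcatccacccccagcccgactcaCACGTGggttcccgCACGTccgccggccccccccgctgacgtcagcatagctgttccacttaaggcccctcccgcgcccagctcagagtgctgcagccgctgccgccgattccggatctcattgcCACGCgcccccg
MPC1: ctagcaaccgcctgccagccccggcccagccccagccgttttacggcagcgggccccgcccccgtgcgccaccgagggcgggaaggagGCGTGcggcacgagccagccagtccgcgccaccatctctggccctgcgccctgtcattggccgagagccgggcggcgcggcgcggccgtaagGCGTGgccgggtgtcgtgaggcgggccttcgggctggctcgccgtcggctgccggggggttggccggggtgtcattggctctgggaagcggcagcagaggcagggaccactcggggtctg
The window of SLC2A1, the lower member, held 1 match of GCGTG and none of ACGTG. The window of ALDOC held 3 matches of ACGTG and 2 of GCGTG, with 1 E-box, and that of LDHA 5 of ACGTG and 1 of GCGTG, with 2 E-boxes. PGK1 had 3 matches of ACGTG and 1 of GCGTG, and MPC1 2 of GCGTG. A match is a string of letters in this window and was not tested as a binding site.

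Glucose uptake was the step with a lower member. SLC2A1 (ENSG00000117394) encodes GLUT1, the main glucose transporter of the RPE, and spans bases 42925375 to 42959176 of chromosome 1, minus strand, in GENCODE release 29 (GRCh38). It was at 957, 975, 907, 877 and 863 CPM in control 1 to 5 and at 656, 560.2, 580.0, 586 and 547 CPM in HG_1 to HG_5. All high glucose libraries lay well below all control libraries, with HG_1 the closest to them. The log2 fold change was -0.64 (standard error 0.0578, edgeR adjusted p = 9.80e-05), a level of 0.640 times that of the control group. SLC2A1 passed in the same direction in all 21 alternatives, with log2 fold changes between -0.68 and -0.62. SLC2A3, which encodes the high-affinity transporter GLUT3, had 20.5 ± 2.24 CPM in control libraries and 24.0 ± 2.15 CPM with high glucose (SD, n = 5 each), with overlapping libraries and an edgeR adjusted p of 0.119. Per transcript length, SLC2A1 was at 249.97 ± 10.8 FPKM (fragments per kilobase of transcript, scaled by library size) in control libraries and 161 ± 8.21 FPKM with high glucose, whereas SLC2A3 was at 4.95 ± 0.562 and 5.84 ± 0.598 FPKM. Of the summed FPKM of both transporters, SLC2A3 thus made up 1.59, 1.83, 1.89, 2.06 and 2.38% in control 1 to 5 and 2.81, 3.4996, 3.499, 3.56 and 4.21% in HG_1 to HG_5, with no overlap.

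Hexose phosphorylation traps glucose as glucose 6-phosphate. HK1, the hexokinase of most tissues, was at 246, 279, 261, 254 and 252 CPM in control 1 to 5 and at 327, 328, 318, 319 and 300.3 CPM in HG_1 to HG_5. Even the lowest high glucose library exceeded the highest control library, which was control 2. HK1 rose by 0.30 on the log2 scale (standard error 0.0444, edgeR adjusted p = 0.00133). HKDC1, a hexokinase relative that lies next to HK1 on chromosome 10, was at 75.3, 99.0, 99.3, 94.2 and 97.3 CPM in the control and at 121, 114, 125, 121 and 119 CPM in the high glucose libraries. Control 1 was far below the other controls, and the groups did not overlap. Its log2 fold change was 0.37 (standard error 0.0732, edgeR adjusted p = 0.00651). For HK2, the inducible hexokinase bound to mitochondria, the control libraries held 18.3, 14.4, 17.7, 18.9 and 15.7 CPM and the high glucose libraries 14.5, 26.1, 24.0, 31.1 and 20.4 CPM. HG_1 was within the control range and the other high glucose libraries above it, and HK2 did not pass (log2 fold change 0.45, edgeR adjusted p = 0.113). Without HG_1 it passed (0.58, edgeR adjusted p = 0.00890), as it did without HG_1 and control 2 (0.0128) and after the GC and length correction (0.0344), while its adjusted p over all 21 alternatives reached 0.245. ADPGK, which phosphorylates glucose with ADP, was at 54.4 ± 2.07 and 51.1 ± 1.89 CPM and did not pass (edgeR adjusted p = 0.227).

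In upper glycolysis, from glucose 6-phosphate to the triose phosphates, 4 of 7 members were higher. GPI, which turns glucose 6-phosphate into fructose 6-phosphate, was at 388, 504, 427, 434 and 435 CPM in control 1 to 5 and at 624, 519, 538, 548 and 501 CPM in HG_1 to HG_5. Only control 2 reached into the high glucose range, just above HG_5. GPI had a log2 fold change of 0.32 (standard error 0.0766, edgeR adjusted p = 0.0173), and without HG_1 and control 2 the value was 0.32 (0.00103). PFKM, the muscle-type subunit of phosphofructokinase, the committed step, was at 139, 159, 147, 150.0 and 149 CPM in the control and 187, 178, 179.6, 176 and 179.9 CPM in the high glucose libraries. Its groups did not overlap, and the high glucose libraries were close to each other. PFKM rose by 0.28 on the log2 scale (standard error 0.0431, edgeR adjusted p = 0.00175). The other phosphofructokinase subunits did not pass: PFKL was at 243 ± 27.3 and 258 ± 22.7 CPM (edgeR adjusted p = 0.553), and PFKP, the most abundant of them per transcript length, at 563 ± 25.0 and 566 ± 43.9 CPM (edgeR adjusted p = 0.948). The log2 fold change of PFKP, 0.00834, turned to -0.00792, -0.00402 and -0.0352 without control 1, control 3 and HG_1. After the GC and length correction PFKL passed with a log2 fold change of 0.13 (edgeR adjusted p = 0.0181), the only one of its 21 alternatives in which it did.

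Aldolase splits fructose 1,6-bisphosphate. ALDOA, its ubiquitous form, was at 1409.8, 2046, 1446, 1642 and 1601 CPM in control 1 to 5 and at 2807, 2046, 2025, 2255 and 2012 CPM in HG_1 to HG_5. HG_1 was far above the other high glucose libraries, and control 2 reached their level. ALDOA had a log2 fold change of 0.45 (standard error 0.120, edgeR adjusted p = 0.0271). Its edgeR adjusted p was 0.0701, 0.0680, 0.0551 and 0.0624 without control 1, 3, 4 and 5 and 0.0575 without HG_4, and 0.00605 at its lowest among the fits without 1 library. Without HG_1 and control 2 the log2 fold change was 0.45 (edgeR adjusted p = 0.000823). Of the 100-base windows of its transcript 87.7% also occur in other annotated genes, most often in AC093512.2, so its level depends on how shared reads were assigned. ALDOC (ENSG00000109107), the aldolase of brain, was at 15.3, 27.5, 23.9, 21.2 and 23.5 CPM in the control libraries and 56.8, 45.7, 44.7, 44.2 and 36.8 CPM in the high glucose libraries. Control 1 was the lowest and HG_1 the highest library, and the groups were clearly separate. With a log2 fold change of 1.03 (standard error 0.153, edgeR adjusted p = 0.00134) ALDOC had the largest rise of all members tested, 2.05 times the control level, and it passed in all 21 alternatives. TPI1, which interconverts the triose phosphates, was at 752 ± 80.7 and 915 ± 105 CPM, with HG_1 and control 2 highest in their groups. TPI1 did not pass (log2 fold change 0.28, edgeR adjusted p = 0.0573) but did in 9 of 21 alternatives, among them DESeq2 (0.0167), the fits without control 2 (0.0113) and without HG_1 and control 2 (0.00102), and the GC and length correction (0.000322).

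The PFKFB enzymes make and break fructose 2,6-bisphosphate, the strongest activator of phosphofructokinase, and their isoforms differed. PFKFB2 (ENSG00000123836), the heart form, lies on the plus strand of chromosome 1 from 207034366 to 207081024. It was at 47.9, 48.4, 63.1, 58.8 and 64.8 CPM in control 1 to 5 and at 87.9, 122, 106, 110.0 and 121 CPM in HG_1 to HG_5. Every high glucose library was above every control, HG_1 by the smallest margin. PFKFB2 rose by 0.95 on the log2 scale (standard error 0.114, edgeR adjusted p = 0.000421), 1.93 times the control level, and passed in all 21 alternatives. YOD1 overlaps PFKFB2 on the other strand and was also higher (log2 fold change 0.45, edgeR adjusted p = 0.0397); whether strand was used in counting is not stated, so reads in the overlap cannot be told apart. PFKFB4 was at 17.8, 20.6, 18.4, 17.5 and 16.8 CPM in the control libraries and 21.2, 23.9, 21.2, 21.7 and 22.0 CPM in the high glucose libraries. The groups did not overlap, although control 2 came within 1 CPM of HG_1 and HG_3. PFKFB4 had a log2 fold change of 0.27 (standard error 0.0676, edgeR adjusted p = 0.0213). Its edgeR adjusted p was 0.0508, 0.0553, 0.0575 and 0.0572 without control 1, control 4, control 5 and HG_2. UCN2, annotated on the same strand within PFKFB4, had a log2 fold change of -0.81 (edgeR adjusted p = 0.00944). PFKFB3, the isoform of proliferating cells with the highest kinase activity, was at 40.7 ± 4.83 and 40.5 ± 5.13 CPM (log2 fold change -0.00742, edgeR adjusted p = 0.974), and its sign turned without control 1 (0.0631), control 4 (0.00578) and HG_1 (0.0730). PFKFB1, the liver form, had 6 counts in control 3 and 0 in the other 9 libraries, and did not pass the filter on low counts of the edgeR fit reported here. For counting error alone, 0 counts allow up to 3, or between 0.0669 CPM (HG_3) and 0.0912 CPM (HG_5) depending on the library.

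Lower glycolysis, from the triose phosphates to pyruvate, holds the most abundant members, and 2 of 8 were higher. PGK1 (ENSG00000102144), the first enzyme of the pathway that returns ATP, was at 561, 610.0, 548, 572 and 582 CPM in control 1 to 5 and at 827, 807, 822, 889 and 710.3 CPM in HG_1 to HG_5. The groups were well apart, with HG_5 the lowest high glucose library. PGK1 rose by 0.50 on the log2 scale (standard error 0.0587, edgeR adjusted p = 0.000380) and passed in all 21 alternatives. PGAM4, which lies on the other strand within the annotated span of PGK1, was at 5.96 and 6.68 CPM (group means). ENO2, the neuronal enolase, was at 159, 225, 199, 195 and 195 CPM in the control libraries and 277, 250.1, 259, 257 and 232 CPM in the high glucose libraries. Control 2, the highest control, stayed just below HG_5. ENO2 had a log2 fold change of 0.39 (standard error 0.0828, edgeR adjusted p = 0.00924).

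The other enzymes of lower glycolysis did not pass. GAPDH, which oxidises glyceraldehyde 3-phosphate, was at 4520.0, 5800.2, 4564, 4772 and 4725 CPM in control 1 to 5 and at 7095, 5396, 5670.1, 5627 and 5252 CPM in HG_1 to HG_5. Apart from control 2 and HG_1, each the highest of its group by far, the high glucose libraries lay above the controls. GAPDH had a log2 fold change of 0.25 (edgeR adjusted p = 0.0995); it passed in 5 of 21 alternatives, with 0.0227 without control 2, 0.00118 without HG_1 and control 2 and 0.0474 with DESeq2. ENO1, the ubiquitous enolase, was at 962 ± 113 and 1146 ± 117 CPM (log2 fold change 0.25, edgeR adjusted p = 0.0833) and passed in 8 of 21 alternatives, with 0.0119 without control 2, 0.00205 without HG_1 and control 2 and 0.0357 with DESeq2. PGAM1, the phosphoglycerate mutase, was at 1279 ± 90.3 and 1358 ± 75.3 CPM (edgeR adjusted p = 0.375) and passed in 1 alternative, without HG_1 and control 2 (0.0463). Of its 100-base windows 38.5% occur in other annotated genes, most often in AC012085.1. PKM, the pyruvate kinase of most tissues, was at 4644 ± 444 and 4508 ± 563 CPM, with a log2 fold change of -0.0429 (edgeR adjusted p = 0.813) that turned to 0.0195 without control 2. BPGM, which makes 2,3-bisphosphoglycerate, was at 9.86 ± 0.853 and 9.21 ± 0.936 CPM (edgeR adjusted p = 0.564). ENO3, the muscle enolase, was at 5.32 ± 0.950 and 5.45 ± 1.25 CPM with a log2 fold change of 0.0337 (edgeR adjusted p = 0.931) that turned to -0.0309, -0.0685 and -0.0368 without control 4, HG_1 and HG_3.

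Of the lactate genes, 1 of 4 was higher. LDHA (ENSG00000134333), the lactate dehydrogenase subunit that favours lactate formation, was at 515, 491, 483, 570.1 and 449 CPM in control 1 to 5 and at 706, 594, 652, 963 and 682 CPM in HG_1 to HG_5. HG_4 was far above all other libraries, and the lowest high glucose library, HG_2, was just above control 4. LDHA rose by 0.52 on the log2 scale (standard error 0.119, edgeR adjusted p = 0.0138), and without HG_4 by 0.39 (edgeR adjusted p = 0.00928). On the deposited FPKM values it did not pass (limma on log2(FPKM + 1), log2 fold change 0.36, adjusted p = 0.209). LDHB, the subunit that favours pyruvate, was at 995 ± 23.7 and 1035 ± 22.3 CPM (edgeR adjusted p = 0.336), and 52.3% of its 100-base windows occur in other annotated genes, most often in AC010197.2. SLC16A3, the lactate exporter MCT4, was at 1082 ± 90.6 and 1187 ± 132 CPM (log2 fold change 0.13, edgeR adjusted p = 0.317); it passed without HG_1 and control 2 (0.00877) and after the GC and length correction (0.000398), and in none of the other 19 alternatives. SLC16A1, the transporter MCT1, was at 68.5 ± 6.54 and 64.9 ± 6.64 CPM (edgeR adjusted p = 0.630).

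**Figure D2:**
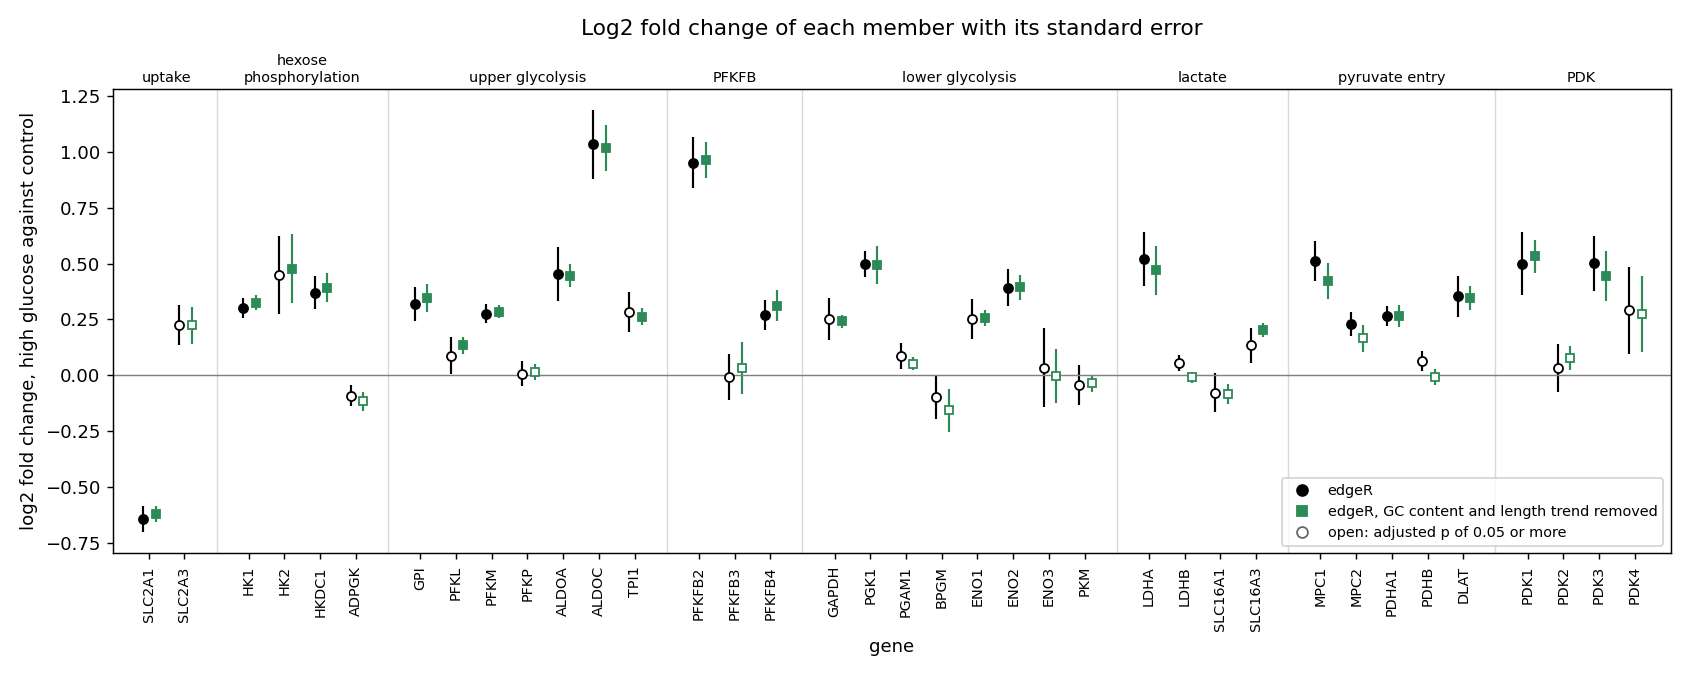
Log2 fold change of each tested member, high glucose against control, with its standard error, from edgeR on the counts (black) and after the correction for GC content and length (green); filled symbols have an adjusted p under 0.05. SLC2A1 is at -0.64 and -0.62, ALDOC at 1.03 and 1.02, and GAPDH, TPI1, ENO1 and SLC16A3 have shorter error bars and filled symbols only after the correction.

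Of the pyruvate entry genes, 4 of 5 were higher, and 3 of 5 after the GC and length correction. MPC1 (ENSG00000060762) and MPC2 form the mitochondrial pyruvate carrier. MPC1 was at 10.5, 13.1, 10.96, 9.81 and 11.9 CPM in control 1 to 5 and at 17.1, 16.6, 16.6, 15.4 and 14.4 CPM in HG_1 to HG_5. The groups did not overlap, HG_5 being the lowest high glucose library and control 2 the highest control. MPC1 rose by 0.51 on the log2 scale (standard error 0.0902, edgeR adjusted p = 0.00350) and passed in all 21 alternatives. MPC2 was at 46.7, 52.1, 49.2, 48.0 and 48.1 CPM in the control libraries and 59.1, 52.5, 56.1, 61.4 and 56.8 CPM in the high glucose libraries. Here HG_2 was only just above control 2. MPC2 had a log2 fold change of 0.23 (standard error 0.0533, edgeR adjusted p = 0.0152), which the GC and length correction reduced to 0.17 (edgeR adjusted p = 0.0519). DCAF6, which overlaps MPC2 on the other strand, had a log2 fold change of -0.22 (edgeR adjusted p = 0.0308).

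The pyruvate dehydrogenase complex turns pyruvate into acetyl-CoA. PDHA1, its catalytic alpha subunit, was at 71.4, 79.5, 79.2, 74.6 and 71.3 CPM in control 1 to 5 and at 90.6, 89.4, 88.9, 92.4 and 90.9 CPM in HG_1 to HG_5. The libraries of each group lay close together and the groups were apart. PDHA1 rose by 0.27 on the log2 scale (standard error 0.0450, edgeR adjusted p = 0.00272). Its partner PDHB was at 97.8 ± 4.18 and 102 ± 4.00 CPM and did not pass (edgeR adjusted p = 0.399). DLAT, the acetyl transferase core, was at 59.6, 54.1, 65.3, 68.5 and 65.4 CPM in the control libraries and 64.7, 79.9, 80.4, 89.8 and 85.2 CPM in the high glucose libraries. HG_1 lay within the control range and the other high glucose libraries above it. DLAT had a log2 fold change of 0.35 (standard error 0.0919, edgeR adjusted p = 0.0247), and its edgeR adjusted p was 0.0633 without control 1 and 0.0536, 0.0574, 0.0626 and 0.0618 without HG_2, HG_3, HG_4 and HG_5. Without HG_1 and control 2 DLAT was at 0.37 (edgeR adjusted p = 0.00129).

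Kinases of the PDK family switch the complex off, and 2 of 4 were higher, both with overlapping groups. PDK1 was at 24.8, 20.9, 23.2, 25.8 and 28.4 CPM in control 1 to 5 and at 23.5, 38.6, 36.5, 40.9 and 34.5 CPM in HG_1 to HG_5. HG_1 was within the control range, and the other high glucose libraries were above it. PDK1 had a log2 fold change of 0.50 (standard error 0.139, edgeR adjusted p = 0.0338). Without control 1, 2, 3 and 4 its edgeR adjusted p was 0.0720, 0.0645, 0.0786 and 0.0628, and without HG_2, HG_3, HG_4 and HG_5 it was 0.0819, 0.0772, 0.0818 and 0.0652, so the call held in 2 of 10 such fits. PDK3 was at 12.2, 14.4, 13.2, 17.9 and 16.0 CPM in the control libraries and 17.4, 22.4, 23.2, 23.0 and 18.3 CPM in the high glucose libraries. In this gene HG_1 lay just below control 4. PDK3 had a log2 fold change of 0.50 (standard error 0.123, edgeR adjusted p = 0.0191), and its edgeR adjusted p was 0.0505 without control 3 and 0.0529 without HG_3. Without HG_1 and control 2 the log2 fold changes were 0.56 for PDK1 (edgeR adjusted p = 0.000867) and 0.55 for PDK3 (0.0137). On log2(FPKM + 1) neither kinase passed (limma, log2 fold change 0.32 and adjusted p = 0.0764 for PDK1, 0.22 and 0.298 for PDK3). With a pseudocount of 0.1 in place of 1 the log2 fold change of PDK3 was 0.34 (adjusted p = 0.297). PDK2 was at 69.4 ± 9.32 and 71.0 ± 9.97 CPM with a log2 fold change of 0.0331 (edgeR adjusted p = 0.887) that turned to -0.0131 without control 1 and -0.0522 without HG_1. PDK4, known as the kinase induced by fasting, was at 2.33 ± 0.479 and 2.86 ± 0.601 CPM (edgeR adjusted p = 0.373).

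Levels of different genes can be compared only per transcript length, here in the deposited FPKM. In the control group GAPDH was highest, at 3500.5 ± 329.9 FPKM, followed by PKM at 1854 ± 149 and ALDOA at 1017 ± 145 FPKM (SD, n = 5). Their libraries did not overlap, so this order stood above the spread between control libraries. That spread does not measure how shared reads were assigned, on which the place of ALDOA depends, with 87.7% of its 100-base windows in other genes. With high glucose the order of the 3 was the same, but PKM and ALDOA overlapped. LDHB (704 ± 11.3 FPKM) and PGAM1 (655 ± 38.5 FPKM), both with many windows shared with other genes, came next and overlapped each other in the control libraries, as did ENO1 (499.6 ± 51.5 FPKM) and TPI1 (473 ± 37.0 FPKM). SLC2A1 ranked 10 of 38 in control libraries, above PFKP, and 11 in high glucose libraries, below PFKP. ALDOC moved from rank 26 to 21 and PFKFB2 from 29 to 26. At the lower end stood HK2 (2.79 ± 0.331 FPKM), PDK3 (1.52 ± 0.434 FPKM) and PDK4 (0.596 ± 0.127 FPKM). The place of PDK3 holds for the deposited FPKM alone, since it rests on the transcript length used: in CPM per length of 1 annotated transcript per gene, PDK3 was above PDK1.

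**Figure D3:**
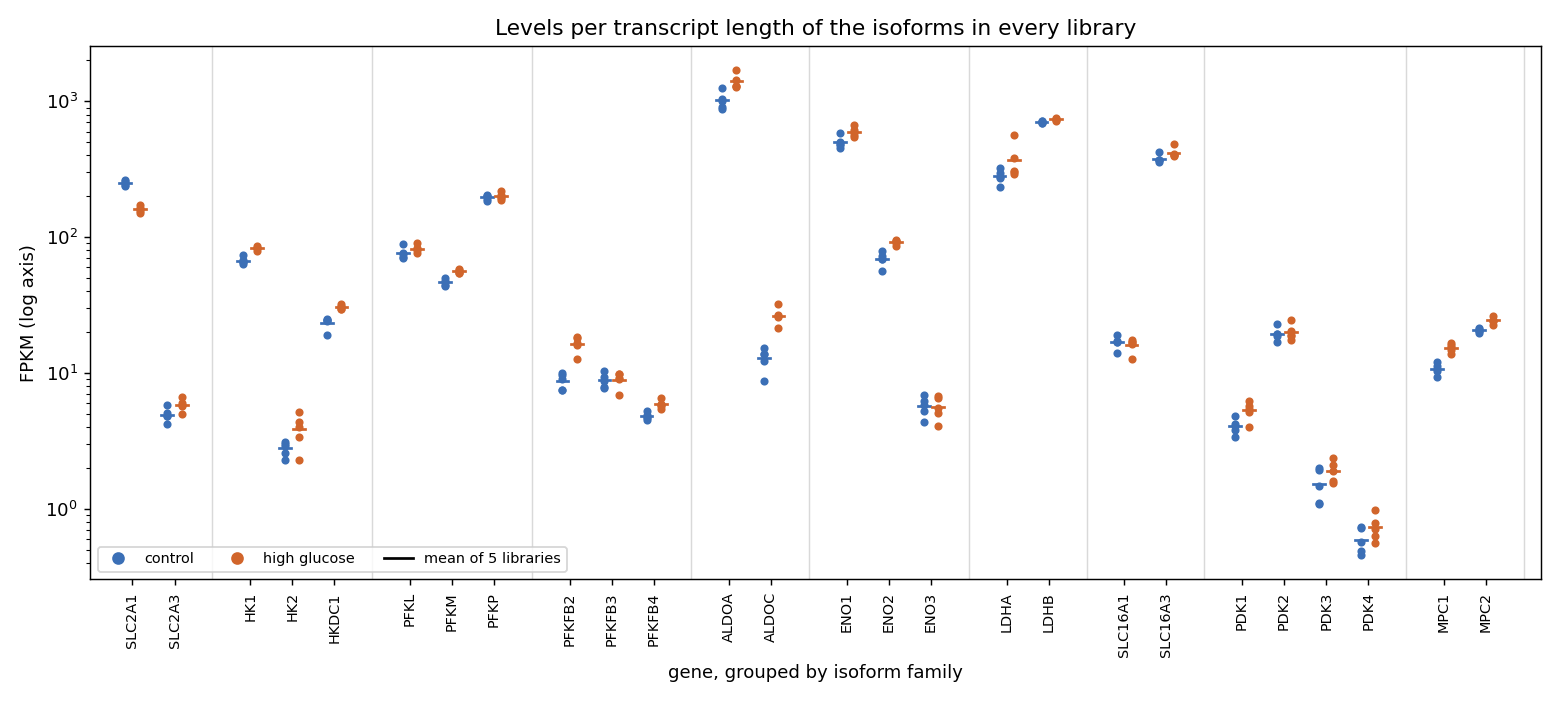
FPKM of the isoforms of each enzyme or transporter family in every library, on a log axis; points are libraries (blue control, orange high glucose) and bars are means of 5. SLC2A1 is at a mean of 249.97 FPKM in control and 161 FPKM in high glucose libraries, against 4.95 and 5.84 FPKM for SLC2A3.

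Isoform make-up differed in some families. Among the PFKFB enzymes, PFKFB2 made up 33.2, 36.2, 41.3, 39.2 and 45.1% of the summed FPKM in control 1 to 5 and 50.8, 53.0, 52.0, 51.6 and 54.6% in HG_1 to HG_5. Its mean share was 39.0% in control and 52.4% in high glucose libraries, and the groups did not overlap. PFKFB3 made up 46.03, 38.1, 37.4, 40.5 and 34.7% in the control libraries and 27.5, 28.3, 29.6, 30.4 and 27.4% in the high glucose libraries, lower in all of the latter. Its own level hardly differed, at 8.83 ± 1.12 and 8.97 ± 1.24 FPKM, whereas PFKFB2 was at 8.76 ± 1.22 and 16.4 ± 2.30 FPKM. Reads in the overlap of PFKFB2 with YOD1 cannot be told apart in these shares either. PFKFB4 overlapped between the groups, with means of 21.6% and 19.0%. PFKM made up 14.6, 14.5, 14.5, 14.5 and 14.7% of phosphofructokinase FPKM in control 1 to 5 and 15.3, 17.7, 16.6, 16.7 and 16.8% in HG_1 to HG_5. This was a small but separate shift, with PFKP still the main form at means of 61.5% and 59.1%. ALDOC stayed a minor aldolase, at 0.989, 1.21, 1.5001, 1.18 and 1.35% of aldolase FPKM in the control libraries and 1.87, 2.00, 1.98, 1.77 and 1.66% in the high glucose libraries, without overlap. These shares depend on how the reads that ALDOA shares with other genes were assigned. HK1 made up means of 72.0% and 70.7% of the hexokinase FPKM, HKDC1 25.0% and 26.0%, and HK2 3.00% and 3.26%, all overlapping between the groups. The enolases, the MCT transporters, the PDK kinases and the MPC subunits also had overlapping shares in FPKM. Within the PDK family the unit set the order: PDK1 had mean shares of 16.0% and 19.2% in FPKM but 5.79% and 7.10% in CPM per transcript length. PDK3 had 5.87% and 6.87% in FPKM but 25.4% and 31.3% in CPM per transcript length, again overlapping between the groups. LDHA made up a mean of 28.5% of the lactate dehydrogenase FPKM in control and 32.9% in high glucose libraries, with overlap, and in CPM per transcript length, from the counts, 24.3% and 30.5%, without overlap. These shares were compared with no test.

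**Figure D4:**
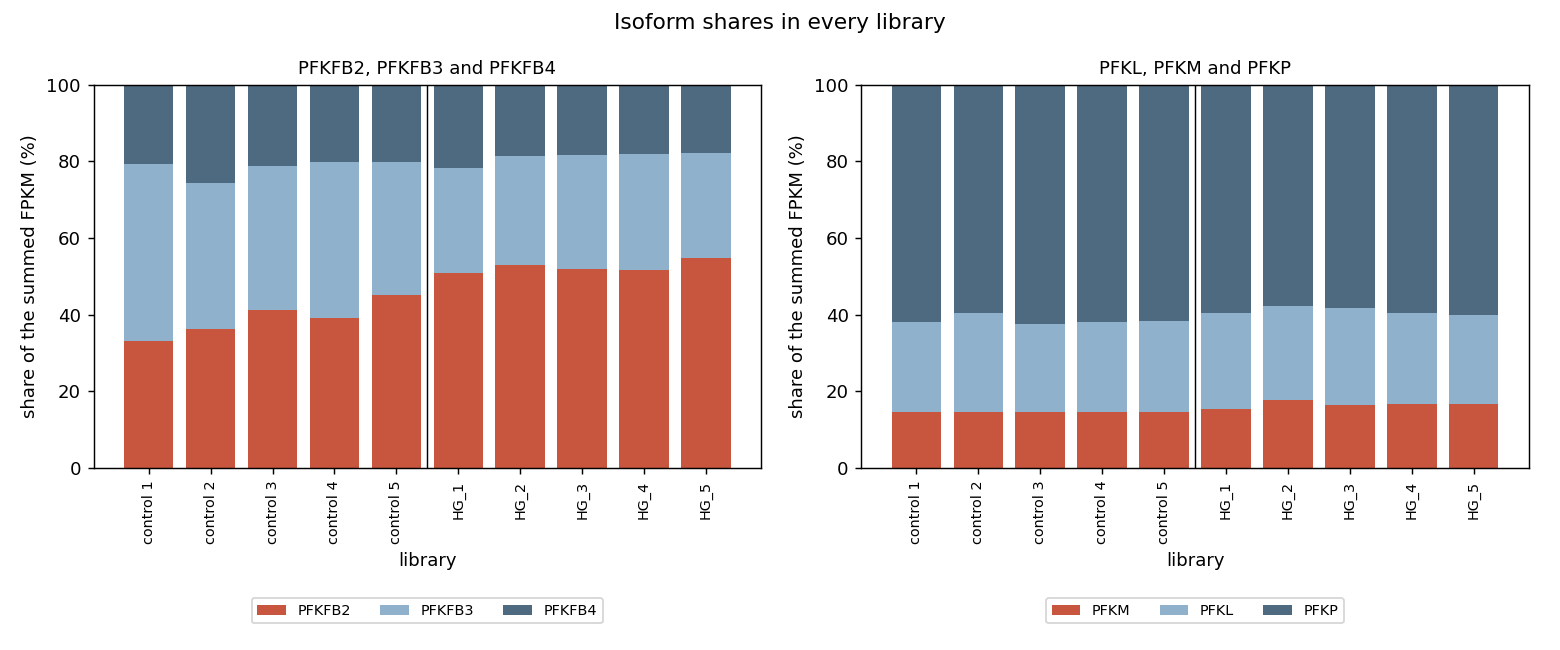
Share of each isoform in the summed FPKM of its family in every library, for PFKFB2, PFKFB3 and PFKFB4 (left; PFKFB1 was at most 0.253%) and for the phosphofructokinase subunits PFKM, PFKL and PFKP (right); the line parts control 1 to 5 from HG_1 to HG_5. PFKFB2 takes 33.2 to 45.1% in the control and 50.8 to 54.6% in the high glucose libraries, and PFKM 14.5 to 14.7% and 15.3 to 17.7%.

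Counts and FPKM ran in parallel for most members but not for all. After scaling each library, the ratio of count to FPKM varied between libraries by a coefficient of variation under 10% in 33 of 37 members, as in 93.0% of the 10414 rows whose lowest count was 200 or more. Exceptions were LDHA (13.6%), PDHA1 (12.1%), PDK1 (10.4%) and PDK3 (14.3%). LDHA was at 323, 299, 234, 271 and 277 FPKM in control 1 to 5 and 299.6, 294, 308, 567 and 385 FPKM in HG_1 to HG_5. In this unit HG_1, HG_2 and HG_3 fell within the control range and only HG_4 and HG_5 lay above it. PDHA1 was at 20.4, 22.4, 24.0, 22.5 and 20.1 FPKM in the control libraries and 24.3, 37.2, 33.8, 28.04 and 25.6 FPKM in the high glucose libraries. There the high glucose libraries, close together in counts, spread out, with HG_2 and HG_3 highest, and limma on log2(FPKM + 1) gave a log2 fold change of 0.41 (adjusted p = 0.0310) in place of 0.27. How the FPKM of these genes was computed, for example over which transcripts, is not given in the sources used here.

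**Figure D5:**
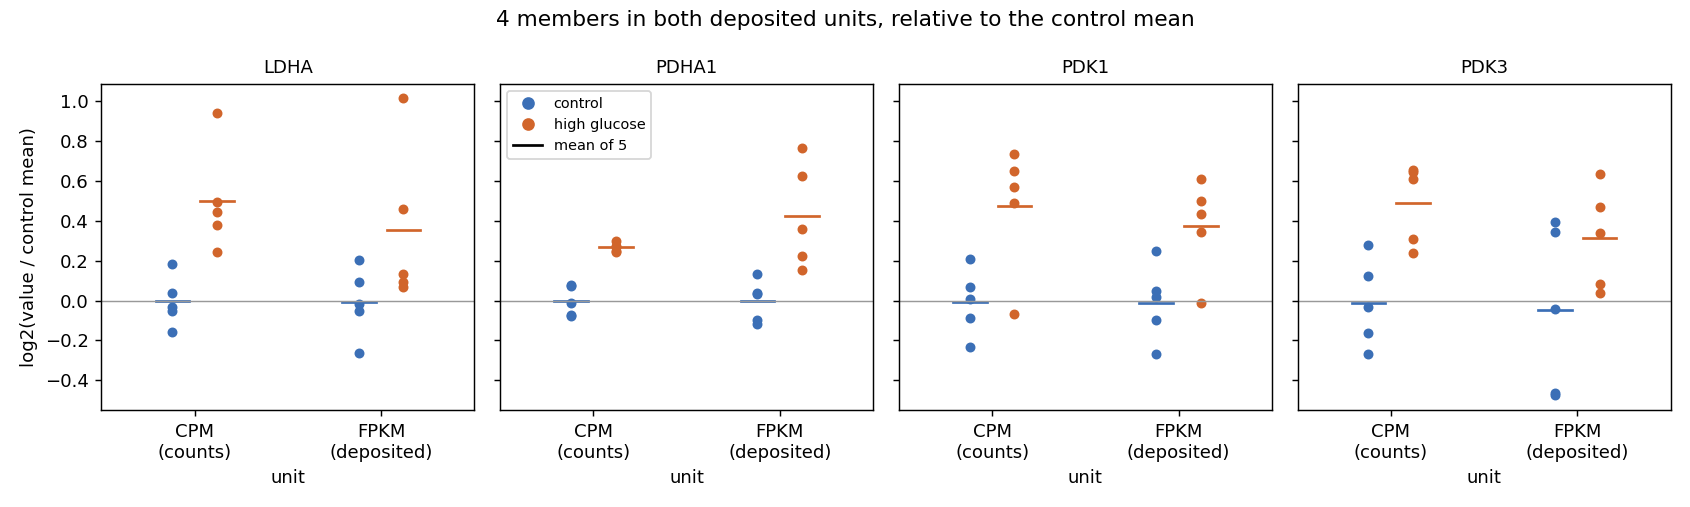
LDHA, PDHA1, PDK1 and PDK3 in every library in CPM from the counts and in the deposited FPKM, as log2 of the value over the control mean of the same unit; points are libraries (blue control, orange high glucose) and bars are means of 5. In LDHA and PDK3 the groups overlap more in FPKM than in CPM, and in PDHA1 the high glucose libraries spread more.

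Other genes of the pathway were taken from a list of 48, of which 27 could be tested. Of these, 2 were higher (7.41%) and 1 lower (3.70%) at an adjusted p under 0.05, against 7.62% and 7.80% of all rows tested, so neither share was above that of all rows. PCK2, the mitochondrial enzyme that makes phosphoenolpyruvate from oxaloacetate, had 8.34 ± 0.657 CPM in control libraries and 21.2 ± 5.23 CPM with high glucose (log2 fold change 1.34, edgeR adjusted p = 0.000257). In this gene, as in PDP2, every high glucose library lay above every control library. PDP2, a phosphatase that switches pyruvate dehydrogenase on, was at 25.2 ± 2.80 and 34.9 ± 1.98 CPM (log2 fold change 0.47, edgeR adjusted p = 0.00299). SLC2A12, a further glucose transporter, was lower, at 29.1 ± 2.98 and 24.5 ± 1.12 CPM (log2 fold change -0.25, edgeR adjusted p = 0.0471). Control 2 fell within its high glucose range and the other 4 control libraries lay above it. The median log2 fold change of the list was 0.0986.

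Because many members are HIF-1 targets, 18 hypoxia-response genes outside glycolysis were read from the same fit. Of 17 tested, 7 were higher (41.2%, against 7.62% of all rows tested) and the other 10 did not pass. The list was chosen with earlier results of these data known, so its shares describe it and do not test it. Their median log2 fold change was 0.18, and that of all rows 0.00132. CA9, a carbonic anhydrase, had 8.92 ± 1.84 CPM in control libraries and 18.7 ± 3.96 CPM with high glucose (log2 fold change 1.07, edgeR adjusted p = 0.00265). VEGFA, the vascular growth factor, was at 47.8 ± 2.07 and 87.1 ± 9.12 CPM (log2 fold change 0.87, edgeR adjusted p = 6.97e-05). Every high glucose library lay above every control library in 7 of the 17, the same 7 genes, against 6.74% of all rows. BNIP3, a mitophagy receptor, had a log2 fold change of 0.58 (edgeR adjusted p = 0.00113). DDIT4, ERO1A, NDRG1 and BHLHE40 followed, with log2 fold changes of 0.35, 0.35, 0.34 and 0.19. Among those that did not pass, BNIP3L, MXI1, KDM3A and ANKRD37 were at 0.32, 0.18, 0.16 and 0.13. EGLN1, ADM and P4HA1 were at 0.0933, 0.0812 and 0.0278, and P4HA2 at -0.0818. EGLN3, with group means of 0.649 and 0.466 CPM, was at -0.47. ANGPTL4, with at most 10 counts, was not tested. HIF1A itself, the oxygen-regulated subunit, was at 885 ± 154 and 685 ± 118 CPM and did not pass (log2 fold change -0.37, edgeR adjusted p = 0.118).

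The labelled cell type was checked against marker genes. Of 8 RPE markers, OTX2 was between 92.5 and 102 CPM in control 1 to 5 and between 87 and 90.3 CPM in HG_1 to HG_5. The groups did not overlap, but OTX2 did not pass (log2 fold change -0.12, edgeR adjusted p = 0.0814). MITF was at 57.8 ± 4.79 and 50.2 ± 4.37 CPM and RLBP1 at 10.98 ± 1.51 and 8.79 ± 1.44. RPE65 had 6 counts in 1 library and 0 in the other 9, TYR had at most 34 counts, and PMEL was lower in the high glucose group (log2 fold change -0.72, edgeR adjusted p = 0.00854). The list summed to 444, 165, 171, 717, 174, 153, 161, 149, 157 and 162 CPM in control 1 to 5 and HG_1 to HG_5, most of it OTX2 and MITF except where BEST1, between 0.577 and 551 CPM, was high. Of 3 epithelial markers both tested, KRT8 and KRT18, were lower, and the list summed to 3145, 3288, 2660.4, 2757, 2769, 2315, 1766, 1729, 1638 and 1905 CPM in the same order, most of it KRT8 and lower in every high glucose library than in any control library. Of 4 mesenchymal markers COL1A1 and ACTA2 were lower and COL1A2 was at 0 in 9 libraries, while the sum was 5632, 6106, 5603, 5703, 5761, 6824, 5939, 6228, 6068 and 5832 CPM, nearly all of it VIM, with overlapping groups. Of 2 leukocyte markers CD68, also a lysosomal protein, was higher and PTPRC had at most 4 counts, and the list summed to 54.5, 81.1, 78.7, 68.6, 68.7, 143, 109.7, 113, 103 and 102 CPM. Endothelial CDH5 was at 0 in all 10 libraries, as was HBB of red cells, and the sums of the endothelial and red cell lists stayed at or below 0.583 and 0.0520 CPM in every library. The part of these marker shifts in the members' values was not tested.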

How the data were processed

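RNA-seq libraries of ARPE-19 cells were compared, 5 from control and 5 from high glucose medium. The deposited count values are raw read counts per gene, which the authors made from reads trimmed with fastp 0.20.1 and aligned with HISAT2 2.2.1 to GRCh38. The deposited FPKM values were computed by the authors per kilobase of transcript and library size. The program that counted reads, its annotation and the use of strand are not given in the sources used here.

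Counts were filtered with filterByExpr, scaled by TMM and fitted with the quasi-likelihood model of edgeR 4.0.16 in R 4.3.3, and p-values were adjusted by Benjamini-Hochberg over 14936 rows. Alternatives used DESeq2 1.42.0, limma 3.58.1 on log2(FPKM + 1) or log2(FPKM + 0.1), other filters and size factors, a correction for GC content and length (GENCODE release 29; 13538 rows with a value), the column number as a block, and fits without 1 library or without HG_1 and control 2. A count of 0 allows up to 3 counts, for counting error alone. Members and gene lists were chosen with earlier results of these data known. All members are named, with values in every library for those with an adjusted p under 0.05. Of the other pathway and hypoxia lists, genes with an adjusted p under 0.05 are named, at most 8 per list by size of log2 fold change. The remaining genes of the hypoxia list are named too, a choice made after values were seen. HIF1A, the overlapping genes YOD1, UCN2, DCAF6 and PGAM4, and the values of HK2 and GAPDH in every library were chosen after values were seen. Motifs were searched with Python 3.11.15 and figures drawn with matplotlib 3.10.9.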

Additional observations from a re-analysis of the deposited data

Results flagged for a closer look

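In 74 groups of 5 CPM values, the 2 groups of each of the 37 tested members, a library was singled out when its gap to the nearest other library took up more than 0.71 of the group's whole range. Chance does this in about 1 in 20 groups, or about 3.7 of 74, and 11 were found: 5 in control 2, 4 in HG_1 and 2 in other libraries. Control 2 was high in PFKL at 289 CPM (other controls 223 to 241), in TPI1 at 895 (707 to 739), in GAPDH at 5800.2 (4520.0 to 4772), in PKM at 5416 (4363 to 4619) and in SLC16A3 at 1242 (1015 to 1058). HG_1 was high in GAPDH at 7095 CPM (other high glucose libraries 5252 to 5670.1) and in SLC16A3 at 1422 (1115 to 1149.8), and low in PFKFB3 at 31.7 (40.8 to 44.2) and in SLC16A1 at 53.3 (66.8 to 69.98). Control 1 was low in HKDC1 at 75.3 CPM (94.2 to 99.3), and HG_2 was low in BPGM at 7.59 CPM (9.27 to 9.85).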

How the results depend on the processing

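Of the 18 called members, 9 had the same call under all 21 alternatives: SLC2A1, HK1, HKDC1, PFKM, ALDOC, PFKFB2, PGK1, MPC1 and PDHA1. Without the block by column number there were 11, and in all 10 fits without 1 library 13. Over members and alternatives 682 of 776 comparisons kept direction and side of the threshold, 40 lost a call, 29 gained one and 25 turned in sign. All genes passing numbered 4035 without HG_1 and control 2, 3958 after the GC and length correction, 1071 with the block, and 1648 (without HG_3) to 2993 (without HG_1) in the fits without 1 library, where higher members numbered 13 (without control 1) to 19 (without control 2) and the members' median log2 fold change ran from 0.25 to 0.30. With the block 11 members were higher and 1 lower, and GPI, ALDOA, PFKFB4, ENO2, MPC2 and PDK1 did not pass. Libraries with the same number correlated at -0.0656 to 0.0392 and none was closest to its own number, so the columns show no pairing. Of the differences in isoform share between the groups, 1 moved by more than its spread, PDK3 at 5.93 percentage points in CPM per length against 1.00 in FPKM, whereas the shares themselves depend on the unit, as given for the PDK family.

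The turned log2 fold changes all belong to members that did not pass, with the cause not tested. PFKFB3 (-0.00742) was at 0.00759 with total count scaling, 0.0174 in the limma fit on log2(FPKM + 1), 0.0187 with the 0.1 pseudocount, 0.0174 with a mean FPKM of at least 1, 0.0359 without HG_1 and control 2 and 0.0327 after the GC and length correction. ENO3 (0.0337) was at -0.0249, -0.0297 and -0.0249 in the 3 limma fits and -0.00197 after the correction. After the correction LDHB (0.0569) was at -0.00937 and PDHB (0.0650) at -0.00786, and without HG_1 and control 2 PFKP (0.00834) was at -0.0128. Without 1 library PFKP ran from -0.0352 to 0.0347, PFKFB3 from -0.0404 to 0.0730, ENO3 from -0.0685 to 0.14, PKM from -0.12 to 0.0195 and PDK2 from -0.0522 to 0.12.

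PFKFB1, with 6 counts in all, did not pass the filter on low counts of the reported fit and was tested only where that filter was absent (DESeq2 and edgeR without a filter). Counts and FPKM were made by programs not stated, reads shared with similar or overlapping genes cannot be assigned, RNA level is not protein or flux, and 1 time point of 48 h was measured.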
